A study of Mus musculus with 8 samples.

Results

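The 41 genes of DNA replication and homologous recombination were followed across 8 arrays of sorted mouse CD4 T cells. They are an assembled list of known replication and recombination genes, chosen with earlier results of these data known. Every probe whose platform gene symbol is on the list was taken. Of the 41 listed genes, 38 had at least 1 probe, giving 65 probes among the 25697 on the array, while no probe here carried the symbols Gins1, Gins2 or Rfc3. Of these 38 genes, 32 passed the detection filter, a detection p-value under 0.05 on at least 2 arrays for the probe that stands for the gene, and these are 32 of 7916 genes of the whole array that did so.

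Illumina mouse bead arrays were hybridised with RNA of cells taken from spleen or small intestine (gut below) of C57B6 mice of both sexes aged 7 to 14 weeks. All mice carried the FOXP3GFP reporter. Controls were MHCII+/-, FOXP3GFP, and the other genotype was K14Aβb, FOXP3GFP, called K14 here, which per the series description has no MHC class II outside the thymus. From live TCRb+CD4+CD8-B220- cells, GFP+ regulatory T cells (Treg) and GFP- conventional T cells (Tcon) were taken, and each of the 8 combinations of tissue, cell type and genotype is 1 array of RNA pooled from several mice. The K14 mice express the class II Aβb chain from a keratin 14 promoter, which is active in thymic epithelium, so their CD4 T cells can be selected in the thymus but meet no class II afterwards.

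Before a cell copies its DNA, licensing factors load the MCM helicase at origins, and Cdc45 and Mcm10 help turn it on. Polymerases, a sliding clamp and its loader then copy the strands, ribonucleotide reductase and the thymidylate enzymes supply the nucleotides, and chromatin assembly and maintenance methylation restore the new chromatin. Many of these genes are transcribed in a wave at the start of S phase under E2F transcription factors, so their RNA is low in resting lymphocytes and high in dividing ones.

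The E2F recognition letters are shown first, because promoter sequence was not used to choose the members. In RefSeq promoter windows of GRCm38.p6, running from 250 bases before to 50 bases after each start site, 34 of the 41 genes had an entry. The words TTTGGCGC, TTTGCCGC, TTTCGCGC and TTTCCCGC were searched on both strands. At least 1 of these words stood in the windows of 14 of the 34 genes (41.2%), against 2.60% of 27025 genes with an entry and 4.46% of the 10463 genes with a window at or above the members' median G+C content of 57.3%. The 14 genes were Brca2, Cdc6, Cdt1, Dnmt1, Lig1, Mcm3, Mcm5, Mcm6, Mcm7, Msh6, Pola1, Pold1, Rfc3 and Uhrf1. The letters CCAAT were in the windows of 22 of the 34 genes (64.7%), against 41.1% of all and 34.8% of those G+C-rich genes. For other words the direction depended on the genes set against. The GC box letters GGGCGG were in 24 windows (70.6%), more often than in all genes (38.2%) and less often than in G+C-rich ones (76.3%), and the letters TTTGAA of the CHR element of mitotic promoters in 5 (14.7%), less often than in all (20.2%) and more often than in G+C-rich ones (7.37%). A match is only a run of letters, and a window without one may hold a site spelled otherwise.

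The 200 bases before the start site are printed 5′ to 3′ in lower case, with the E2F words in capitals, for 4 members that carry a word there and for Rrm2 and Tk1, which carry none in their windows and were higher on K14 in every pair below. The stretches are chr17:56304113-56304312 for Uhrf1 (+ strand, the second of 2 start sites), chr11:98907951-98908150 for Cdc6 (+), chr1:128359706-128359905 for Mcm6 (-), chr5:150522421-150522620 for Brca2 (+), chr12:24708054-24708253 for Rrm2 (+) and chr11:117826015-117826214 for Tk1 (-). The annotated spans of Uhrf1, Cdc6 and Brca2 begin upstream of these stretches, at 56303337, 98907709 and 150522297, so their printed words lie within the annotated genes. That of Tk1, on the - strand, reaches to 117826087, inside its stretch. For Uhrf1 the start site was taken whose stretch holds a word. In Mcm6, 2 of its 3 words, 1 on each strand, overlap in the run TTTGGCGCGAAA.
Uhrf1: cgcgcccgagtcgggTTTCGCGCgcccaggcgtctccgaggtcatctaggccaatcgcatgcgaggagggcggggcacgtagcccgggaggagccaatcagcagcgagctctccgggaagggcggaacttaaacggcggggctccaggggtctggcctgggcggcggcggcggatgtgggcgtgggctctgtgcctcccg
Cdc6: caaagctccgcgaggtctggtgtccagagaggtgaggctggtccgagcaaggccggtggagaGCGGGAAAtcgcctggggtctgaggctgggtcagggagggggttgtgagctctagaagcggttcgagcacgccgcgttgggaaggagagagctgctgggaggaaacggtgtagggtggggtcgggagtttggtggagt
Mcm6: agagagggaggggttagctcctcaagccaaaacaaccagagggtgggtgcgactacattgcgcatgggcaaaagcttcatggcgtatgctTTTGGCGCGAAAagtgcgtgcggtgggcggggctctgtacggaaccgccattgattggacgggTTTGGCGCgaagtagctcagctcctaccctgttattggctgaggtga
Brca2: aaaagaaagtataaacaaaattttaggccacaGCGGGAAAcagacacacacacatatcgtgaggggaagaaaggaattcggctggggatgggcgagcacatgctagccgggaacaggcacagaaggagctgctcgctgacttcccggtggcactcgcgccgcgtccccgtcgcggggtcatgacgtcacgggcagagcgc
Rrm2: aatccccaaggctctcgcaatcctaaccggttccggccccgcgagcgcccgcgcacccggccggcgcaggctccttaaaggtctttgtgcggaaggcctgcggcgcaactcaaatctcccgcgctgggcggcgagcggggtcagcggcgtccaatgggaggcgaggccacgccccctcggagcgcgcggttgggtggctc
Tk1: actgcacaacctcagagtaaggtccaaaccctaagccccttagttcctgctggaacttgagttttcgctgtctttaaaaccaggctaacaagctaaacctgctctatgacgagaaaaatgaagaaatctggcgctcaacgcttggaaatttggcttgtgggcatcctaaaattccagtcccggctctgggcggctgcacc

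Values below are log2 normalised signals, on which 1 unit is a 2-fold difference, and a level can be compared between arrays for a probe but not between probes. Between 8822 and 9677 probes were detected on an array, and the lowest detected signals stood at 6.57 to 6.88. The T cell genes Cd3d and Cd3e read between 14.68 and 15.86 on all 8 arrays. Of the CD8 chains, which the gate should lack, Cd8a was detected on 0 arrays but Cd8b1 on all 8, at 9.78 to 13.37. The Foxp3 probe read 6.75 to 7.06 on all arrays, near the detection limit, so it does not check the GFP sort. Ctla4, a Treg gene, read 14.24 and 13.95 on the spleen Treg arrays against 10.01 and 9.29 on spleen Tcon, but 15.26 and 15.16 on gut Tcon beside 16.01 and 15.86 on gut Treg. H2-Ab1, which encodes the class II Aβ chain, read 11.61 in spleen Tcon, 11.01 in spleen Treg, 12.24 in gut Tcon and 10.98 in gut Treg of controls. The arrays labelled K14 read 13.19, 13.38, 12.86 and 10.93 in that order. It was thus higher, not lower, in 3 of the 4 arrays labelled K14, and where its probe lies relative to the disrupted part of the gene is not given in the sources used here. Every direction between genotypes below rests on the labels.

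Most markers of myeloid, B and erythroid cells also read higher on K14 on average, with 0 past the adjusted test in limma and 6, 1 and 2 of them higher at an unadjusted p under 0.05. Of 10 myeloid markers past the filter (of 17 listed), 9 were higher on K14 on average, and their summed signal was 17050 to 51390 on the K14 arrays against 11380 to 20330 on the control arrays. The corresponding sums were 2198 to 19120 against 1646 to 6526 for B cell markers (6 of 6 higher, of 12 listed) and 854.7 to 4689 against 563.8 to 999.3 for erythroid markers (4 of 5 higher, of 10 listed). The defining markers were mixed. Of B cell genes, Cd79b and Cd22 were detected on 8 arrays, Ly6d on 7, Ms4a1 on 1, and Pax5, Cr2 and Blnk on 0. Of myeloid genes, Ctss, Cst3 and Lyz1 were detected on 8, Tyrobp and Fcer1g on 6, Lyz2 on 5, and Itgam, Spi1 and Clec9a on 0. Of 10 CD8 and NK cell markers 5 passed the filter, with 3 higher on K14 on average, Klrd1 by 1.53, Cd8b1 by 0.77 and Nkg7 by 0.41, and sums of 11930 to 39850 on K14 against 11760 to 26650. Exocrine pancreas markers summed to 68600 on the gut Tcon control array and to 1207 to 3575 on the other 7. The part of these cells in the results below was not tested.

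Most measured members read higher on the K14 arrays than on their control partners, but none passed the test. Of the 32 members past the filter, 26 had a mean K14 minus control difference above 0, against 47.7% of all 7916 genes, and the median difference was 0.36 against -0.01 for all genes. Without the filter the median of the 38 measured members was 0.28, with 31 above 0. Of the 32, 11 were higher in all 4 pairs of arrays that match in tissue and cell type, where 7.88% of all genes were. For Rad54b, 1 of the 11, neither array of the spleen Tcon pair was detected, and such levels have no order. With only pairs counted that hold a detected array, the members were 10, against 6.29% of all genes. None was lower in all 4 pairs, where 8.62% of all genes were. Without the filter the count was again 11, of 38, against 7.02% of 16593 genes. In bulk RNA, fewer cells of a type and less RNA per cell cannot be told apart.

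No member passed limma's test at an adjusted p of 0.05 for K14 against control, nor did any other gene (0% of 7916), with the spread over 4 pairs as the error. At an unadjusted p under 0.05, 8 members were higher, against 3.9% of all genes, and 0 were lower, against 4.09%. The p-values measure the spread between these pooled arrays, not between mice. The filter lets a gene pass through its high arrays alone, and the members were chosen with earlier results of these data known. The counts and medians over the 32 are therefore descriptions. The pattern by array is shown in the heat map. The spleen Treg K14 array was the highest of the 8 for 13 of 32 members (13.3% of all genes) and the gut Tcon K14 array for 9 (10.6%), while the spleen Tcon K14 array (16.8%) and the gut Treg control array (10.5%) were highest for 0.

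**Figure D1:**
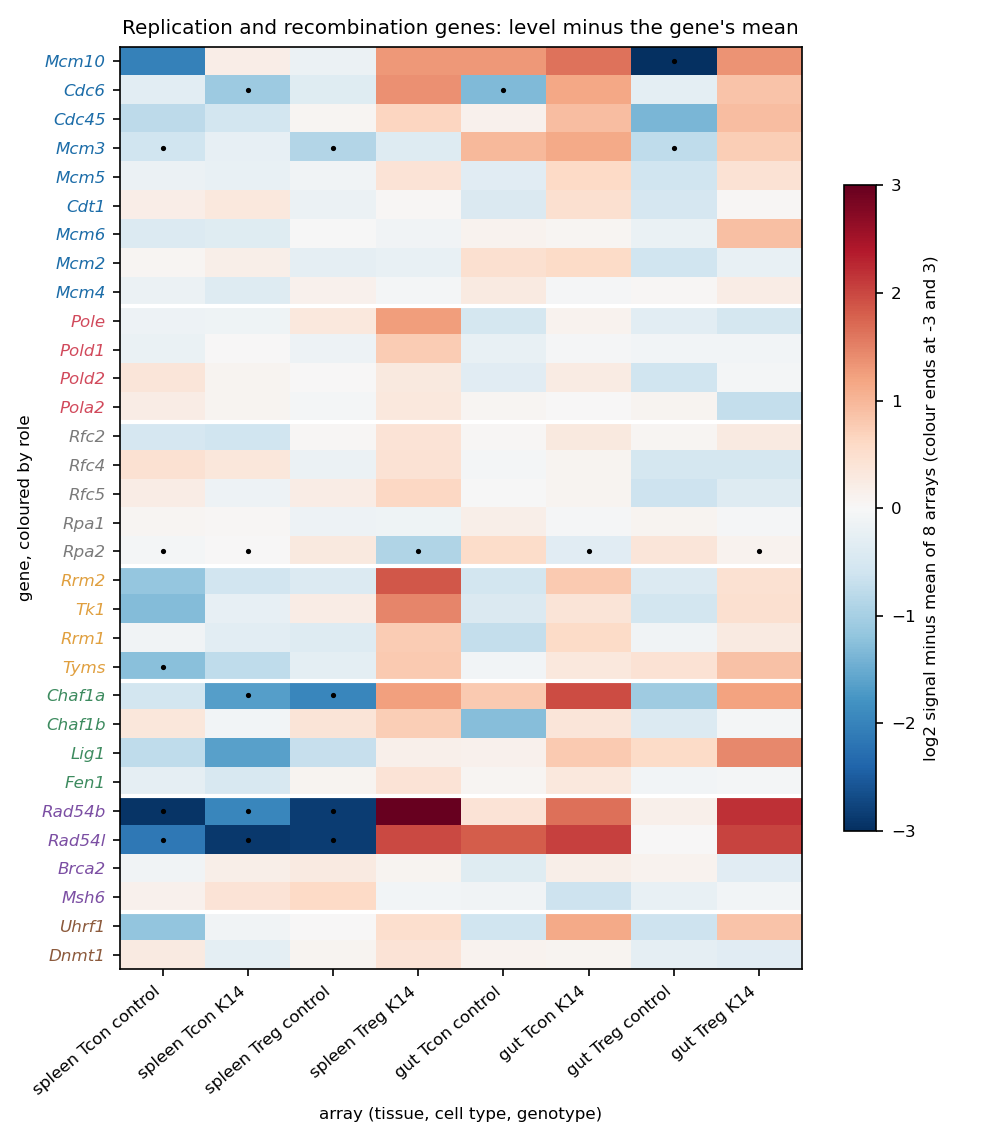
Levels of the 32 members past the filter on the 8 arrays, each as log2 signal minus the gene's mean over the arrays, with genes grouped and coloured by role and ordered within a role by the genotype difference. Red is above and blue below the mean, black points mark values not detected, and the widest ranges are those of Rad54b, Rad54l and Mcm10, with most red on the spleen Treg K14 and gut Tcon K14 arrays.

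The K14 arrays did not all stand apart alike. The median difference of the 32 members was -0.001 in the spleen Tcon pair, 0.49 in the spleen Treg pair, 0.36 in the gut Tcon pair and 0.41 in the gut Treg pair. Members at least 2-fold higher numbered 3 in spleen Tcon (6.16% of all genes), 9 in spleen Treg (7.82%), 7 in gut Tcon (8.29%) and 11 in gut Treg (6.54%). At least 2-fold lower were 1, 1, 0 and 0 members in the same order, against 6.35%, 7.1%, 8.54% and 7.47% of all genes, and both (Chaf1a and Rpa2) were not detected on the lower array. Without the spleen Tcon pair, 23 members were higher in all of the 3 pairs left, where 14.2% of all genes were. In the same order of pairs the median difference of the myeloid markers was 2.53, 2.81, 0.94 and 0.23.

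**Figure D2:**
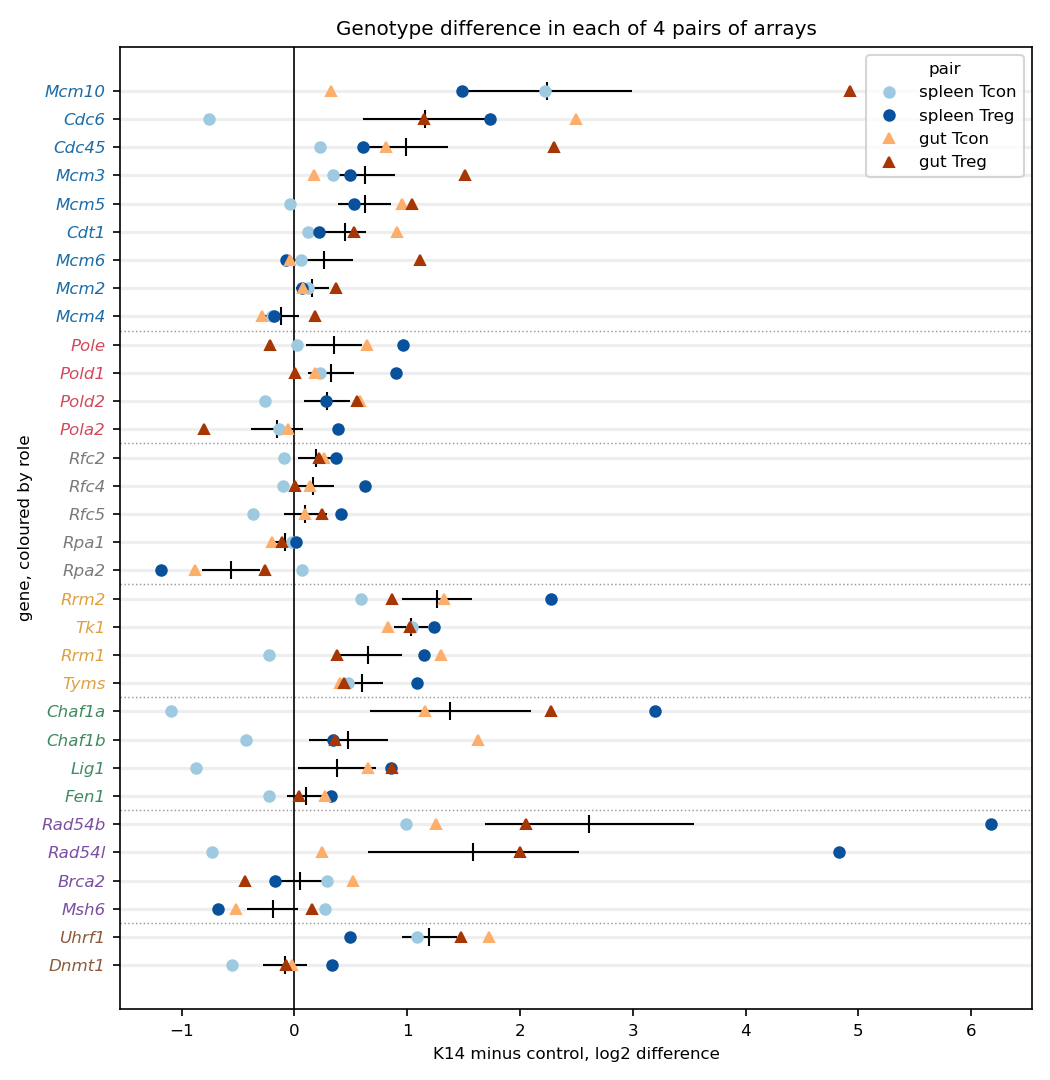
K14 minus control, as a log2 difference, for each of the 32 members in each of the 4 pairs of arrays. Circles are spleen pairs and triangles gut pairs, and the vertical tick with its bar is the mean over the 4 pairs with limma's standard error. All 4 points lie right of 0 for 11 members, and the longest spreads are those of Rad54b, Rad54l, Mcm10 and Chaf1a, each of which has an undetected array.

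Among the licensing and helicase genes, 9 of 12 passed the filter and 5 were higher on K14 in all 4 pairs: Mcm10, Cdc45, Mcm3, Cdt1 and Mcm2. Mcm10, which joins the helicase as origins fire, had the largest difference of the group. It read 7.02 in spleen Tcon, 8.88 in spleen Treg, 10.36 in gut Tcon and 5.49 in gut Treg on the control arrays, and 9.25, 10.36, 10.68 and 10.41 in the same order on the K14 arrays. It was not detected in gut Treg of control mice, while the other 3 gut arrays stood close together, and the genotypes overlap. The gut Treg pair differed by at least 12.8-fold when the undetected level is set to the lowest detected signal, and the difference over the 4 pairs was 2.24 ± 0.75 (limma's standard error, adjusted p 0.548). A second Mcm10 probe, detected on 2 arrays, gave 0.65.

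Cdc45, the helicase cofactor loaded when an origin fires, read 8.52, 9.35, 9.42 and 7.93 on the control arrays of spleen Tcon, spleen Treg, gut Tcon and gut Treg. It read 8.74, 9.95, 10.23 and 10.23 on the K14 arrays. Both gut K14 arrays stood above all others and the gut Treg control array below all others. The pair differences were 2.30 in gut Treg and 0.23 to 0.81 in the other 3, with a mean of 0.99 ± 0.37 (adjusted p 0.599 in limma). Cdt1, the licensing factor that brings the helicase to origins, read 12.35, 11.97, 11.72 and 11.65 on the control arrays against 12.47, 12.19, 12.63 and 12.18 on K14. Its 4 differences were small, from 0.12 to 0.91, and the spleen Tcon control array lay above 2 K14 arrays.

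Mcm2 and Mcm3 are subunits of the ring-shaped MCM helicase. Mcm2 read 11.40, 11.05, 11.82 and 10.74 on the control arrays against 11.51, 11.12, 11.90 and 11.11 on K14, a mean difference of 0.16 ± 0.15 that is about its own error. Mcm3 was detected on 5 arrays and read 6.71, 6.43, 8.27 and 6.53 on the control arrays against 7.04, 6.91, 8.44 and 8.04 on K14. Both gut Tcon arrays and the gut Treg K14 array stood apart from the other 5, which lay near the detection limit, and the gut Treg pair differed by at least 2.47-fold.

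The other helicase subunits gave no common direction. Mcm5 was higher in 3 pairs, by 0.62 ± 0.23 on average, and Mcm4 and Mcm6 gave -0.12 ± 0.16 and 0.26 ± 0.26. For Mcm6 the difference lay in the gut Treg pair (1.12), where another probe gave 1.21 and yet another 0.22. Cdc6, which loads the helicase together with Cdt1, was not detected on the spleen Tcon K14 and gut Tcon control arrays. It was at least 3.79-fold higher on K14 in gut Tcon and at least 1.09-fold lower on K14 in spleen Tcon. Its mean was 1.15 ± 0.55 (adjusted p 0.65 in limma). Mcm7 was detected on no array.

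Of the enzymes of nucleotide supply, all 4 passed the filter, all 4 were higher on average and 3 were higher in every pair. Tk1, the thymidine kinase of the salvage pathway, read 8.40, 9.93, 9.26 and 9.15 on the control arrays of spleen Tcon, spleen Treg, gut Tcon and gut Treg and 9.44, 11.16, 10.08 and 10.17 on the K14 arrays. The K14 array was higher by 0.83 to 1.24 in each pair, although the spleen Treg control array lay above the spleen Tcon K14 array. The mean of 1.03 ± 0.15 had the lowest p of the members, 0.000903 unadjusted and 0.266 adjusted in limma. A second Tk1 probe, detected on 4 arrays, gave 0.53 on average. It was detected on neither spleen Tcon array, so that pair has no order. In spleen Treg, gut Tcon and gut Treg it was higher on K14 by 0.52, 0.57 and 0.85.

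Rrm2, the small subunit of ribonucleotide reductase that is made in S phase, read 8.07, 8.81, 8.68 and 8.83 on the control arrays and 8.67, 11.08, 10.01 and 9.69 on K14. The 4 control arrays lay close together and the spleen Treg K14 array stood highest, with the spleen Tcon K14 array within the control range. The mean difference was 1.26 ± 0.31 (adjusted p 0.505 in limma), and a second probe detected on all 8 arrays gave 1.49. Tyms, thymidylate synthase, read 6.64, 7.59, 7.80 and 8.33 on the control arrays and 7.12, 8.68, 8.20 and 8.77 on K14, with a mean of 0.60 ± 0.19. Its 4 other probes were mixed. The one detected on 6 arrays gave -0.07, but read 6.49 to 6.97, near the detection limit. Another, detected on 2 arrays, gave 0.71, and yet another, also detected on 2, gave -0.09. The last was detected on no array. Rrm1, the large reductase subunit, was higher in 3 pairs and gave -0.23 in spleen Tcon.

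**Figure D3:**
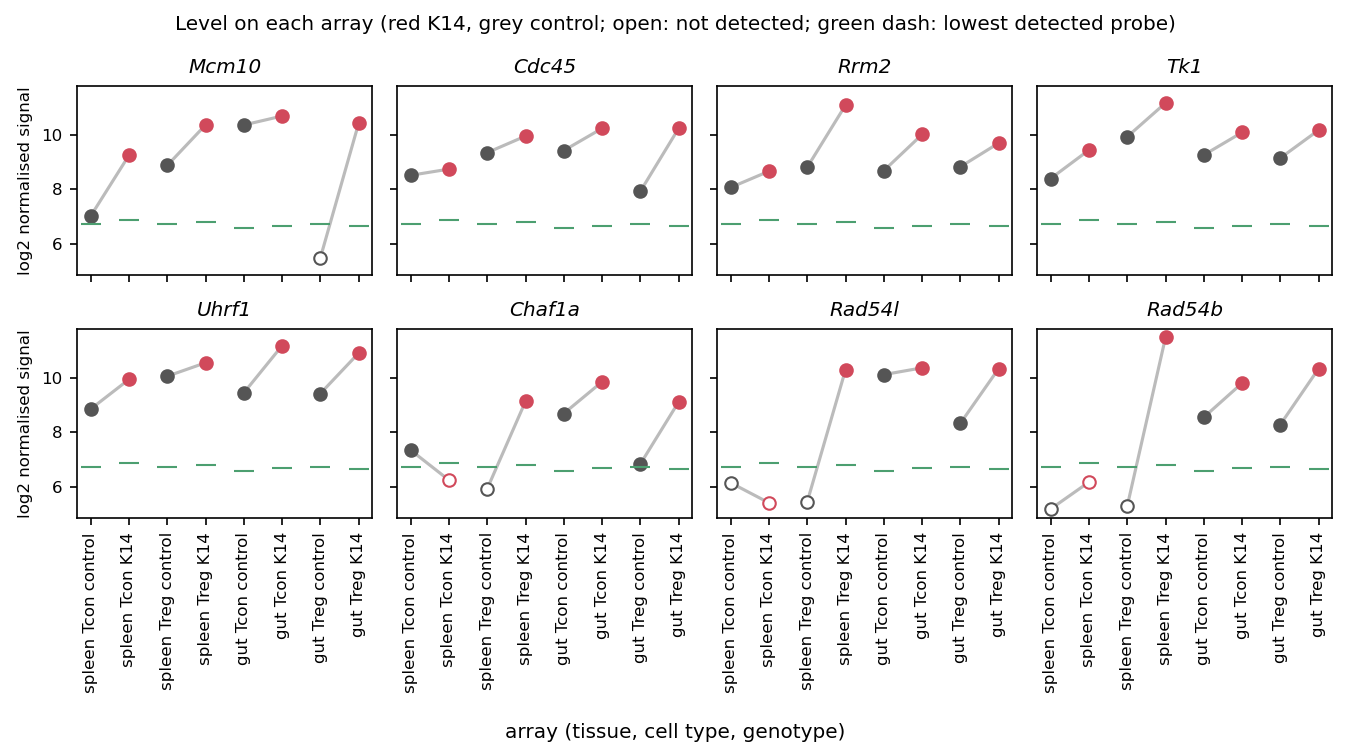
Log2 normalised signal of 8 members on each of the 8 arrays, with K14 in red and control in grey and a line joining each pair. Open circles are values not detected and green dashes mark the lowest detected probe of each array; Tk1 shows 4 lines of like slope, and Rad54b and Rad54l lie below the dashes on 3 spleen arrays.

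Among the recombination genes, a pair differed widely between the genotypes in spleen Treg. Rad54b and Rad54l encode related DNA translocases of homologous recombination. Rad54b read 5.20, 5.30, 8.55 and 8.28 on the control arrays of spleen Tcon, spleen Treg, gut Tcon and gut Treg and 6.18, 11.47, 9.80 and 10.33 on K14. Rad54l read 6.15, 5.46, 10.11 and 8.33 on the control arrays and 5.42, 10.29, 10.36 and 10.33 on K14. Both genes were detected on the same 5 arrays, all 4 gut arrays and spleen Treg of K14, and on none of the other 3 spleen arrays.

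The spleen Treg pair differed by at least 26.9-fold for Rad54b and at least 11.8-fold for Rad54l, with the undetected control level set to the lowest detected signal. Within Treg the adjusted p was 0.635 for Rad54b and 0.570 for Rad54l in limma, in a fit that takes the undetected level as measured. In the spleen Tcon pair neither gene was detected on either array. Gut Tcon gave 1.25 for Rad54b and 0.25 for Rad54l.

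The other recombination and mismatch repair genes gave little difference. Brca2, a tumour suppressor that acts in homologous recombination, read 7.97, 8.34, 7.72 and 8.17 on the control arrays and 8.26, 8.16, 8.24 and 7.73 on K14. Both Tcon pairs were higher and both Treg pairs lower on K14, with a mean of 0.05 ± 0.22. Msh6, a mismatch recognition protein, gave -0.19 ± 0.23, and a second probe -0.23. Brca1 and Exo1 were detected on no array.

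Of the lagging strand and chromatin assembly genes, all 4 passed the filter and 0 were higher in every pair. Chaf1a, the large subunit of the CAF-1 histone chaperone that works behind the fork, read 7.35, 5.94, 8.69 and 6.84 on the control arrays and 6.25, 9.13, 9.85 and 9.11 on K14. It was detected on neither the spleen Tcon K14 nor the spleen Treg control array, and its spleen Tcon pair ran against the other 3. The spleen Treg pair differed by at least 5.32-fold, and the mean was 1.38 ± 0.72 (adjusted p 0.681 in limma). Chaf1b, its partner subunit, gave 0.48 ± 0.35, Lig1, the ligase that joins Okazaki fragments, 0.38 ± 0.35, and Fen1, the flap endonuclease, 0.10 ± 0.17. By these probes all 3 were lower on K14 in spleen Tcon and higher in the other 3 pairs. A second Lig1 probe, detected on all 8 arrays, ran otherwise. It gave 0.46 in spleen Tcon and -0.31 in gut Tcon, and 0.35 and 0.31 in spleen Treg and gut Treg.

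The maintenance methylation genes split. Uhrf1, which recognises half-methylated DNA and recruits Dnmt1, read 8.85, 10.05, 9.44 and 9.42 on the control arrays and 9.94, 10.54, 11.17 and 10.90 on K14. The K14 array was higher by 0.49 to 1.73 in each pair, and only the spleen Treg control array overlapped the K14 arrays. Its mean of 1.20 ± 0.25 had an adjusted p of 0.459 in limma. Dnmt1 itself read 12.37, 12.19, 12.21 and 11.84 on the control arrays and 11.81, 12.52, 12.18 and 11.76 on K14, a mean of -0.08 ± 0.20.

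The polymerase genes gave small differences. Pold1, the catalytic subunit of polymerase delta, read 12.90, 12.96, 12.89 and 13.02 on the control arrays and 13.12, 13.86, 13.07 and 13.02 on K14, and it was the only member with all 4 K14 arrays above all 4 control arrays (1.11% of all genes), although both gut Treg arrays read 13.02 after rounding. Its mean was 0.33 ± 0.20. Pole, the catalytic subunit of polymerase epsilon, read 7.37, 7.84, 7.00 and 7.21 on the control arrays and 7.39, 8.79, 7.63 and 7.00 on K14. Its gut Treg pair gave -0.21, and the spleen Treg K14 array stood highest. Pold2 and Pola2 gave 0.29 ± 0.20 and -0.15 ± 0.23. Pola1 and Prim1, catalytic subunits of the polymerase alpha-primase complex, were detected on no array.

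Of the clamp, clamp loader and single-strand binding genes, 5 of 7 passed the filter and their differences ran from -0.56 to 0.19. Rpa2, a subunit of the single-strand binding protein, read 6.50, 6.84, 7.10 and 6.91 on the control arrays and 6.57, 5.66, 6.22 and 6.66 on K14, where it was detected on no array. It was the lowest difference of the members (-0.56 ± 0.26, adjusted p 0.643 in limma), and the bound is only 1.06-fold lower on K14. Rpa1, the large subunit, read 15.87, 15.66, 15.97 and 15.89 on the control arrays and 15.85, 15.67, 15.78 and 15.78 on K14. Its raw intensity passed 60000 units on 3 control arrays, toward the highest of any probe (70144.7 to 72192.3). Whether it had reached a ceiling was not tested, so its level there may be a lower bound. The loader genes Rfc2, Rfc4 and Rfc5 gave 0.19 ± 0.16, 0.17 ± 0.18 and 0.10 ± 0.19, and Pcna, the clamp itself, was detected on 1 array, gut Treg of K14.

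E2F words were found among members with and without a genotype difference. They were in the windows of 4 of the 10 members higher on K14 in every pair that have an entry, and of 7 of the 18 others past the filter. Rrm2 and Tk1, with no word, differed by 1.26 and 1.03, Uhrf1, with a word, by 1.20, and Dnmt1 and Brca2, each with a word, by -0.08 and 0.05.

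Beside the 7.88% of all genes higher in all 4 pairs, other genes of the same pathways gave these counts. Of 25 other replication genes past the filter (38 listed), 3 were higher in all 4 pairs, with a median of 0.14. The largest difference was that of Clspn, the fork protein that passes the checkpoint signal to Chek1, at 2.13 ± 0.59 (adjusted p 0.524 in limma). Of 18 other recombination and repair genes (37 listed), 0 were higher and 2 lower in all 4 pairs (lower, 8.62% of all genes), with a median of -0.11. The lower ones were Mlh3 (-0.86 ± 0.33) and Lig4, whose gut Tcon levels lay at the detection limit. Of 24 histone chaperone and E2F genes (37 listed), 3 were higher and 1 lower in all 4 pairs, with a median of -0.05. E2f1, the activator of S phase genes, read 8.44, 6.84, 9.97 and 9.21 on the control arrays and 7.74, 10.95, 12.14 and 10.21 on K14. It was lower in spleen Tcon and 4.11 higher in spleen Treg, with a mean of 1.64 ± 0.78 (adjusted p 0.65 in limma). Rbbp7, the lower gene, gave -1.18 ± 0.27 (adjusted p 0.501 in limma), and Skp2 gave -0.97 ± 0.52.

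Mitosis genes had a higher median. Of 13 past the filter (23 listed), 11 were higher in all 4 pairs and 12 had an unadjusted p under 0.05, with a median of 1.71 and 0 past the adjusted test. For Birc5, 1 of the 11, both spleen Tcon levels, 6.47 and 6.72, lay at the detection limit and have no order. Bub1b, a spindle checkpoint kinase, differed by 2.46 ± 0.25 (adjusted p 0.188 in limma), Nusap1 by 2.34 and Kif11 by 1.95. Kif11 was detected on 4 arrays. Its control levels, 5.68 to 6.03, lay below the lowest detected signals, so the size of its difference is not measured. The gut Treg control levels of Bub1b (6.17) and Nusap1 (6.21) also lay below the lowest detected signal of that array (6.73). The summed signal of the 20 mitosis genes with a probe was 51190 on the spleen Treg K14 array and 18330 to 30620 on the other 7. Cenpa, at 13.40 to 14.69, had the highest signal of the 13 and so weighs most in these sums. It differed by 0.10 ± 0.25. The mitosis median was 0.88 in spleen Tcon, where the replication and recombination median was -0.001.

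**Figure D4:**
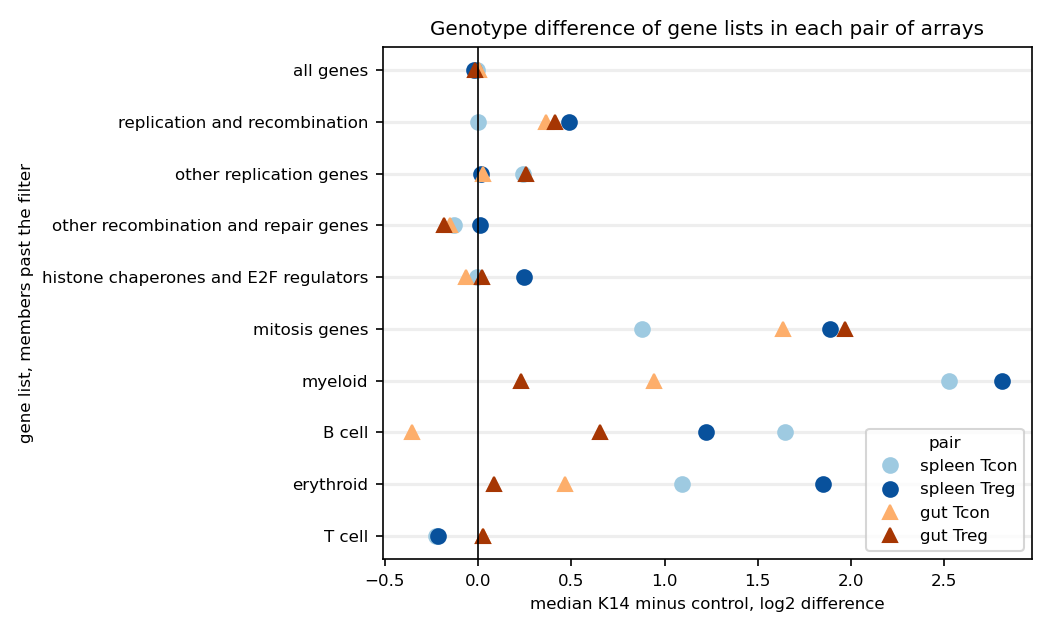
Median K14 minus control log2 difference of each gene list in each of the 4 pairs of arrays, over members past the filter. The replication and recombination members sit at -0.001 to 0.49, mitosis genes at 0.88 to 1.97, and myeloid, B cell and erythroid markers are highest in the 2 spleen pairs.

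Split by cell type, the genotype difference of the members had a median of 0.43 in Treg and 0.18 in Tcon, but the difference between the cell types passed the adjusted test in limma for 0 members and 0 of all genes. In Treg, 10 members were higher at an unadjusted p under 0.05 (3.02% of all genes), against 2 in Tcon (3.03%). No member had an adjusted p under 0.05 in either. Among the 10, Mcm3, Mcm10, Chaf1a, Rad54l and Rad54b have an undetected Treg control level, which the fit takes as measured. At an unadjusted p under 0.05 for the difference between the cell types, 2 members were higher in Treg (2.37% of all genes), Chaf1a and Rad54l, each with an adjusted p of 0.990 in limma and each with undetected levels in spleen, and 0 were lower (2.51%). Of the members, 1 of 32, Brca2, was opposite between the cell types in both tissues, where 11% of all genes were. Between the tissues, the genotype difference was larger in gut by a median of 0.12, against 0.016 for all genes. It was larger in gut for 20 of 32 members (51.4% of all genes). With 1 pair left out the median ran from -0.11 to 0.49, so its sign is not settled. In limma 0 members had an unadjusted p under 0.05 in either direction (2.69% of all genes higher and 3.51% lower).

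Between Treg and Tcon the members differed little over both tissues. The median was 0.15, against -0.03 for all genes. It was 0.009 without the K14 spleen pair, 0.25 without the control gut pair and 0.085 without the filter. In limma 0 members passed the adjusted test, where 0.695% of all genes did. At an unadjusted p under 0.05, 1 member was higher (8.1% of all genes) and 1 lower (7.18%). In all 4 pairs, 2 members were higher in Treg (11.8% of all genes) and 3 lower (13.7%). The higher ones were Tyms, by 0.90 ± 0.23 (adjusted p 0.185 in limma), and Lig1, by 0.75 ± 0.32, and the lower ones Mcm2, Mcm3 and Cdt1. Mcm3 was detected on neither array of the control spleen pair, and without it the lower members were 2 (11.7% of all genes by the same count). All 4 Treg arrays of Mcm2, from 10.74 to 11.12, lay below all 4 Tcon arrays, from 11.40 to 11.90. This was so for 1 of 32 members, where 3.2% of all genes were so placed. The Mcm2 difference was -0.65 ± 0.19 (adjusted p 0.222 in limma).

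Taken tissue by tissue, the values diverged. In spleen, the median Treg minus Tcon difference was 0.06 in control and 0.75 in K14, and in gut -0.13 and -0.28. For 28 of 32 members the difference was smaller in gut than in spleen, and for 4 it was larger, where 51.9% of all genes were larger. The median gut minus spleen contrast was -0.61 against 0.02 for all genes. Without the filter, 29 of 38 were smaller and 9 larger (50.3% of all genes larger), and the median was -0.36. Without the K14 spleen pair the median was -0.23. The contrast passed limma's adjusted test for 0 members and 0 of all genes. At an unadjusted p under 0.05, 3 members were lower (3.7% of all genes): Tk1, Cdc45 and Uhrf1.

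Tk1 was 1.53 higher in Treg than in Tcon in spleen of controls and 1.72 in K14, while in gut the values were -0.11 and 0.09. Its gut minus spleen contrast was -1.64 ± 0.31 (adjusted p 0.425 in limma). Cdc45 was 0.83 and 1.21 higher in spleen Treg and gave -1.49 in gut of controls and -5e-04 in gut of K14. Uhrf1 was 1.20 and 0.61 higher in spleen Treg and gave -0.02 and -0.27 in gut. Opposite directions in the tissues in both genotypes were seen for 5 of 32 members, Cdc45, Fen1, Mcm10, Mcm5 and Uhrf1, where 10.6% of all genes showed them.

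**Figure D5:**
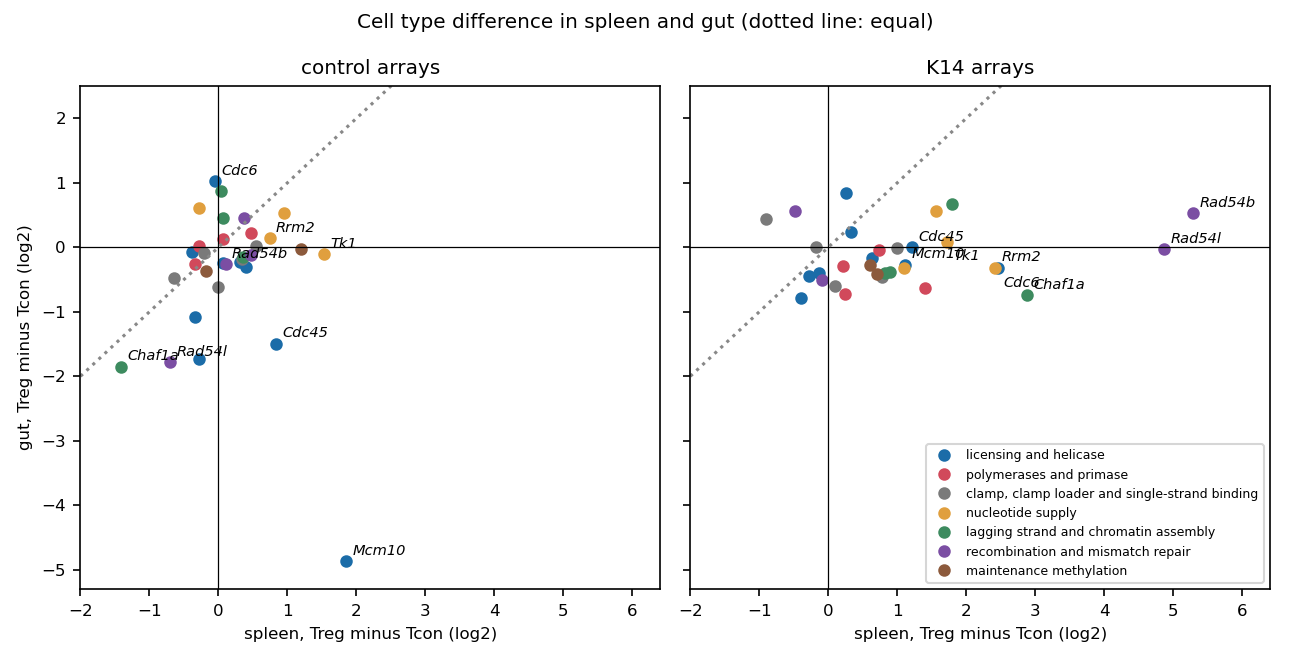
Treg minus Tcon, as a log2 difference, in gut (vertical) against spleen (horizontal) for the 32 members, on control arrays at left and K14 arrays at right, coloured by role. On the K14 arrays most points lie right of 0 and below the dotted line of equal differences, with Rad54b farthest right, measured against an undetected level in spleen Tcon.

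Between gut and spleen, 4 members were higher in gut in all 4 pairs (14.3% of all genes): Rad54l, Lig1, Mcm3 and Tyms. Mcm3 was detected on neither control Treg array, and without it the count was 3 (12.2% of all genes by the same count). Rfc4 and Brca2 were lower in all 4 (20% of all genes). None passed the test, while 2.4% of all genes did, and 5 members were higher (11% of all genes) and 1 lower (13%) at an unadjusted p under 0.05. Cells of each tissue were prepared apart, so preparation and tissue cannot be told apart.

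Lig1 came nearest to the threshold. It read 9.94, 9.07, 10.01 and 10.87 on the spleen arrays of control Tcon, K14 Tcon, control Treg and K14 Treg and 10.84, 11.49, 11.29 and 12.16 on the gut arrays. Only the spleen Treg K14 array overlapped the gut arrays. The difference was 1.47 ± 0.29 (adjusted p 0.0681 in limma), with an adjusted p of 0.0442 on the authors' values and 0.0462 without background correction. A second Lig1 probe, detected on all 8 arrays, read 6.75 to 7.58 in gut and 7.08 to 7.56 in spleen, and with the mean of all probes the difference was 0.68 (adjusted p 0.112). Rad54l was detected on all 4 gut arrays and, in spleen, on the K14 Treg array alone. It was at least 10.4-fold higher in gut Tcon of controls, at least 11.1-fold in gut Tcon of K14 and at least 3.04-fold in gut Treg of controls, while in K14 Treg, where both arrays detected it, gut was 0.04 higher (adjusted p 0.119 in limma over the 4 pairs). For Rad54b the same 3 bounds were 3.54-fold, 7.56-fold and 2.95-fold, and K14 Treg gave -1.14 (adjusted p 0.207). Without the K14 Treg pair the adjusted p of Rad54b was 0.0358, in a fit whose 3 spleen levels are all undetected, so that the size of its difference is not measured.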

How the data were processed

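For each of 8 arrays the authors deposited, per the file headers, 1 intensity (linear scale) and 1 detection p-value per probe. They also deposited log2 values of these arrays, whose normalization is not given in the sources used here. Their column medians were 8.28 to 8.30, with scale and direction as in the intensities (rank correlation 1) and centring unknown. Median intensities were 211.4 to 250.2.

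Background was corrected in R 4.3.3 with limma 3.58.1 by normexp, with its parameters taken from the detection p-values (nec, offset 16), followed by quantile normalization between arrays and log2. The supplied platform table gave 1 symbol to 23978 of 25697 probes and none to 1719. A probe had to be detected at p under 0.05 on at least 2 arrays, and a gene was read from its brightest such probe. K14 against control, Treg against Tcon and gut against spleen were fitted over all 8 arrays with the 4 pairs that share the other 2 factors as blocks. Contrasts within and between cell types or tissues left 2 residual degrees of freedom. The moderated test was adjusted by Benjamini-Hochberg over all 7916 genes, and errors are limma's standard errors. Fold bounds set an undetected level to the array's lowest detected signal or, if higher, to its own. The number of arrays limits the precision. The fits were tested on simulated data.

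The members and all lists were chosen with earlier results of these data known. Values by array are given for members with 1 direction in all 4 genotype pairs, the largest genotype difference of each role, the 3 smallest among those detected on all arrays, and the largest cell type and tissue differences, with up to 3 genes from each other list. Cdc6, Lig1 and Cenpa were described, and Lig1 given by array, after their values were seen. Promoters came from RefSeq (GRCm38.p6) and were searched with Python 3.11.15. The settings varied were the values used (the authors' own), the background step, the normalization (median centring), the offset (50), the filter (none, or on the mean), the probes (mean of all), the pair block, and the pairs (each left out).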

Additional observations from a re-analysis of the deposited data

Results flagged for a closer look

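For 5 of 32 members the Treg minus Tcon difference was positive in spleen and negative in gut in both genotypes. Opposite directions, of either sign, were seen in 10.6% of all genes. The gut minus spleen contrast was -4.05 ± 1.64 for Mcm10, -1.77 ± 0.61 for Cdc45, -1.05 ± 0.37 for Uhrf1, -0.89 ± 0.36 for Fen1 and -0.55 ± 0.36 for Mcm5, and limma's adjusted p was 0.666 to 0.819. Cdc45 gave -5e-04 on the gut K14 arrays, in effect no difference, and the Mcm10 value rests on an undetected level on the gut Treg control array.

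Brca2 was higher on K14 than on control in both Tcon pairs, by 0.29 and 0.52, and gave -0.17 and -0.44 in the Treg pairs. Such opposition between the cell types was seen for 1 of 32 members and 11% of all genes. The difference between the cell types was -0.72 ± 0.33 (adjusted p 0.990 in limma).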

How the results depend on the processing

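For K14 against control 0 genes passed the test under any of the 12 alternatives, and the members' median stayed between 0.26 and 0.51. Members higher in every pair numbered 9 to 11 on all 4 pairs, and 11 to 23 when 1 pair was left out, the 23 without spleen Tcon. Counting only pairs with a detected array, a setting chosen after seeing the data, they were 10, and 2 for Treg over Tcon and 3 for gut over spleen. For the K14 minus control difference in gut minus that in spleen, leaving out 1 pair gave medians of the members from -0.11 to 0.49. Genes past the test for Treg against Tcon were 55, and 100 on the authors' values, 100 without background correction, 2 without the filter, 110 without the pair block and 0 with any pair left out. Members higher in Treg in every pair were 2, but 1 with the mean of all probes and 2 to 7 with a pair left out. For gut against spleen 190 genes passed, and 468 on the authors' values, 406 without background correction, 289 with an offset of 50, 125 without the filter, 462 without the pair block and 0 to 39 with a pair left out. Members past it were 0, but 1 (Lig1) on the authors' values, 1 (Lig1) without background correction and 0 to 1 (Rad54b, against undetected spleen levels) with a pair left out. Members higher in gut in every pair were 4, and 4 to 9 with a pair left out. The K14 minus control difference of Brca2 turned to -0.019 with median centring and ran from -0.11 to 0.21 with a pair left out, below 0 (-0.032 and -0.11) when either Tcon pair was. That of Dnmt1 ran from -0.22 to 0.076, the last without spleen Tcon. The cause of these shifts was not tested. No paired analysis was possible by the replicate numbers of the titles because they run with the genotype. Levels below about 6.9 lie at the detection limit and have no order.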
